A study of Dendrobium nobile with 12 samples.

Results

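The stem and the bud of the orchid Dendrobium nobile were compared across gene models. The comparison rests on 4 of the 12 RNA-seq libraries of a tissue atlas, chosen by their labels: stem replicates 1 and 2, and bud replicates 1 and 2. Stem came from seedlings labelled 1 year old and bud from seedlings labelled 2 years old. The other 8 libraries are leaf and root from 1-year seedlings and petal and labellum (the lip of an orchid flower) from 2-year seedlings, with 2 libraries per tissue. All 12 share 1 genotype label and came from a greenhouse, and no treatment beyond the choice of tissue is named. The organism label and the series title name D. nobile, while the design text names D. officinale. Which kind of bud was taken is not given in the labels. The effects of tissue and of seedling age cannot be told apart, because both change between stem and bud. Whether replicates were separate plants is not given in the labels. The p-values therefore describe the spread between libraries, pooled over the 6 tissues, part of which may be technical.

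In a Dendrobium the stem is a fleshy, jointed cane that bears the leaves, carries the vascular strands and stores water and polysaccharides. Its outer tissue is green, and mature canes bear the flowers. A bud is young tissue in which cells still divide and organs take shape, enclosed by outer parts, and it may form a shoot or a flower. In RNA from a whole organ, fewer cells of a type and less RNA per cell cannot be told apart.

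The measured items were gene models, named by chromosome and by their number along it. The deposited tables pair no model with a gene name or product. Markers of stem, bud or any cell type could therefore not be looked up, and no function is given for any model. For the same reason at most 2 identifiers are printed per direction of a comparison. Each library was deposited as read counts per model and as FPKM, the fragments of a model scaled by its length and by the library total, which compares levels per length. The stem libraries held 28699617 and 27175842 counts, and the bud libraries held 27307456 and 30450170 counts. Over all 12 libraries the totals ran from 5289212 (root replicate 2) to 32040196. Of 31672 models, 19123 (60.4%) had enough counts to be tested.

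A large part of the tested transcriptome differed between the tissues. A model was called when edgeR's quasi-likelihood test gave a Benjamini-Hochberg adjusted p under 0.05 and the levels differed at least 2-fold. In stem 4045 models were higher than in bud, which is 21.2% of those tested, and 4592 models were lower, which is 24.0%. The called models together made up 45.2% of those tested, and the other 10486 (54.8%) were not called. The median log2 fold change of stem over bud was 2.05 among the models higher in stem and −2.29 among the models lower in stem, against −0.03 over all tested models.

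The differences were often large. At 8-fold or more, 1155 models were higher in stem (6.04% of those tested) and 1722 were lower (9.0%). In each of the 4045 models higher in stem, both stem libraries lay above both bud libraries. The same separation held in 4563 of the 4592 models lower in stem, where both stem libraries lay below both bud libraries. Such separation was common in the background, since it was found in the higher direction in 39.1% and in the lower direction in 38.3% of the tested models. Of the calls, 46.8% were higher in stem. That split depended on the scaling and on the test. It was 56.1% with total counts in place of TMM, where the median log2 fold change over all models was 0.19. With limma on log2(FPKM + 1), where scaling, test and filter all differ, it was 57.9% and that median was 0.21. It was 45.0% with RLE size factors, and 41.8% with limma-voom with a weight per tissue, which kept TMM.

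**Figure D1:**
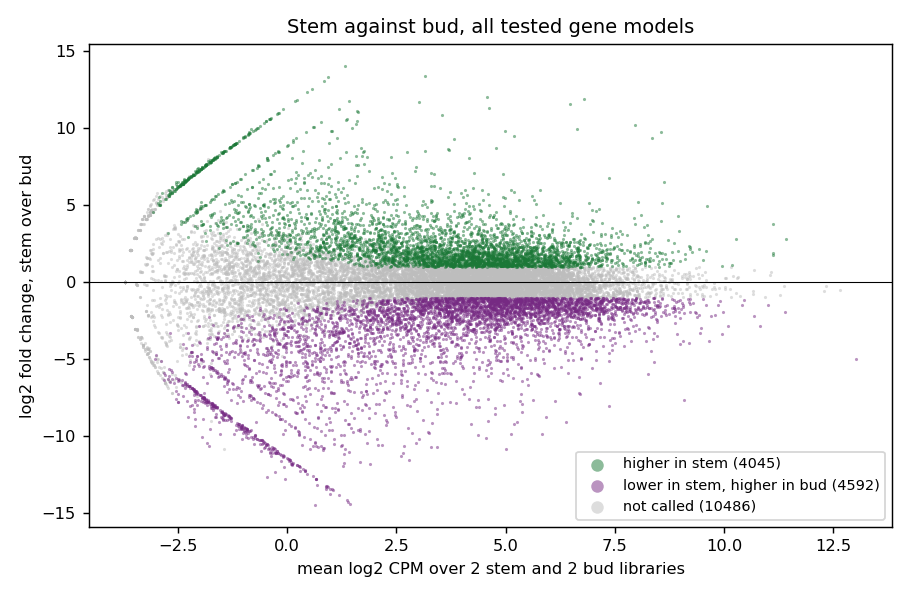
Log2 fold change of stem over bud (y axis) against the mean log2 CPM (counts scaled to the library total) over the 2 stem and 2 bud libraries (x axis), one point per tested gene model. Green points are the 4045 models higher in stem, purple points the 4592 models lower in stem, and grey points the 10486 models not called. The straight arms at the left are models with few or no counts in one of the tissues.

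Calls were made at every level of expression. The tested models were divided into 5 classes of near-equal size by mean log2 CPM over the stem and bud libraries. In the lowest class 15.5% were higher in stem and 21.2% lower, and in the highest class 19.0% were higher and 29.8% lower. The 3 classes between them held 22.4% to 24.6% higher in stem and 22.0% to 24.3% lower. The excess of models lower in stem thus lay mostly in the lowest and the highest class.

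The models that separated stem from bud took a large part of each library. The models higher in stem held 42.1% ± 0.0428 of the counts in stem and 7.23% ± 1.31 in bud (SD, n = 2 each). The models lower in stem held 13.1% ± 0.0272 of the counts in stem and 53.2% ± 2.66 in bud (SD, n = 2 each). The set lower in stem took 55.1% of the counts in bud replicate 1 and 51.3% in bud replicate 2. Many of the most abundant transcripts differed as well. Of the 100 models with the most counts summed over the stem libraries, 56 were called higher in stem and 7 lower. These 100 took 22.4% of the counts in each stem library. Of the 100 highest in bud, 3 were called higher in stem and 65 lower, and they took 23.4% and 21.1% of the counts in bud replicates 1 and 2. The lists of 100 had 36 models in common. For comparison, 21.2% of all tested models were called higher in stem and 24.0% lower. Each list was picked by counts in one of the compared tissues, so a tilt towards that tissue was built in.

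Among the models higher in stem, leaf levels were nearer to stem levels, and floral levels nearer to bud levels. Their median FPKM was 17.8 in stem and 3.47 in bud, beside 13.8 in leaf, 9.96 in root, 3.10 in petal and 4.53 in labellum. Stem had the highest mean FPKM of the 6 tissues in 1947 of them (48.1%), leaf in 1083 (26.8%) and root in 974 (24.1%). Petal was highest in 18 and labellum in 23. Over all tested models the shares were 21.3% for stem, 17.8% for leaf, 23.7% for root, 9.12% for petal and 7.57% for labellum. The selection tilts these shares, since bud could not be highest and stem was favoured. Among the other 4 tissues alone, leaf was highest in 53.5% and root in 40.6%, against 32.7% and 33.1% of all tested models. Labellum was highest in 4.43% and petal in 1.51%, against 14.8% and 19.4%. The same 4045 models took 43.3% of the counts in leaf, on a par with their 42.1% in stem.

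The models lower in stem had their highest median level in bud, and petal and labellum levels were nearer to bud than to stem. Their median FPKM was 9.18 in stem and 44.6 in bud, beside 9.94 in leaf, 14.2 in root, 35.1 in petal and 32.2 in labellum. Bud had the highest mean FPKM in 2530 of them (55.1%) and petal in 879 (19.1%). Root was highest in 564 (12.3%), labellum in 513 (11.2%) and leaf in 106 (2.31%). Over all tested models the shares were 20.6% for bud, 9.12% for petal, 23.7% for root, 7.57% for labellum and 17.8% for leaf. Stem could not be highest in this set, and bud was favoured by the selection. Among the other 4 tissues alone, petal was highest in 46.7%, labellum in 24.2%, root in 19.9% and leaf in 9.15%. Over all tested models these shares were 19.4%, 14.8%, 33.1% and 32.7%. These levels in the other tissues are descriptions and were not tested for the called sets.

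A similar share of each called set was close to absent in the lower tissue. Of the models higher in stem, 959 (23.7%) were under 1 FPKM in both bud libraries, and 217 had no count in either. Of the models lower in stem, 1132 (24.7%) were under 1 FPKM in both stem libraries, and 312 had no count in either.

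Ratios were ranked among called models whose log2 CPM averaged at least 3 over the stem and bud libraries, with no overlap between the tissues. By that rule the largest ratio among models higher in stem was that of evm.model.Chr01.231-gene, on chromosome 1, with a coding length of 1650 bp. Its FPKM was 351 and 540 in stem, against 0.0222 and 0.0398 in bud. The bud libraries held 3 counts of it together. The pooled ratio of stem over bud was 14079, with a 95% counting interval of 4818 to 68271 from the exact Poisson limits of those 3 counts. The edgeR quasi-likelihood test gave an adjusted p of 4.86e-05, and limma-voom with a weight per tissue gave 0.0734. In the 8 libraries of the other tissues it did not pass 3.21 FPKM.

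The most abundant model called higher in stem was evm.model.Chr19.1029-gene, on chromosome 19, with a coding length of 498 bp. It reached 25912 and 25776 FPKM in stem, against 28.6 and 21.7 FPKM in bud. Its log2 fold change was 9.73 ± 1.42 (SE; edgeR quasi-likelihood, adjusted p = 0.000302). The other tissues lay well below stem, at 10.1 and 13.4 FPKM in leaf, 343 and 921 in root, 17.0 and 0.142 in petal, and 6.75 and 9.44 in labellum. Both libraries of stem lay above all other libraries for this model.

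The 5 models with the largest ratios by this rule were high in stem and low in bud and leaf. Their stem levels ran from 280 to 11350 FPKM, against 0.0222 to 3.31 FPKM in bud, and their leaf levels did not pass 6.66 FPKM. One of them was also high in root, at up to 693 FPKM. Their coding lengths ran from 498 to 1650 bp. The 4 most abundant models higher in stem had 9339 to 25912 FPKM in stem, against 2.90 to 1340 FPKM in bud, and 2 of these 4 were also abundant in leaf, at 3067 to 10768 FPKM. The models named or summarised here came from 2 ranks, by ratio and by level, and one model stood in both.

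The bud counts behind the largest ratios were small beside the stem counts. Of the 335 models with at least 20000 counts over the stem libraries, 11 had fewer than 10 bud counts per 10000 stem counts, and 5 of these had fewer than 3. Those 5 were the models ranked first by ratio, at 0.734 to 2.82 bud counts per 10000 stem counts. The third of them held 224925 and 210534 counts in stem, against 45 and 54 in bud. It held 282 and 314 counts in leaf, 64 and 45 in labellum, 174 and 1 in petal, and 1 and 198 in root. For this model the libraries of petal and of root thus differed widely at low counts. The same was seen in other models of the 11. The first by ratio held 8 and 0 counts in petal and 0 and 28 in root. The fifth held 119 and 2 in petal. Not all did so in petal, since another of the 11 held 6 and 8 there. Others of the 11 were well above their bud counts elsewhere, such as the fifth by ratio, with 45 and 44 counts in bud beside 3226 and 1826 in root. Whether the low bud counts come from the tissue itself was not tested, and a ratio of this size depends on them. In the other direction, 3 of the 431 models with at least 20000 bud counts had fewer than 10 stem counts per 10000.

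**Figure D2:**
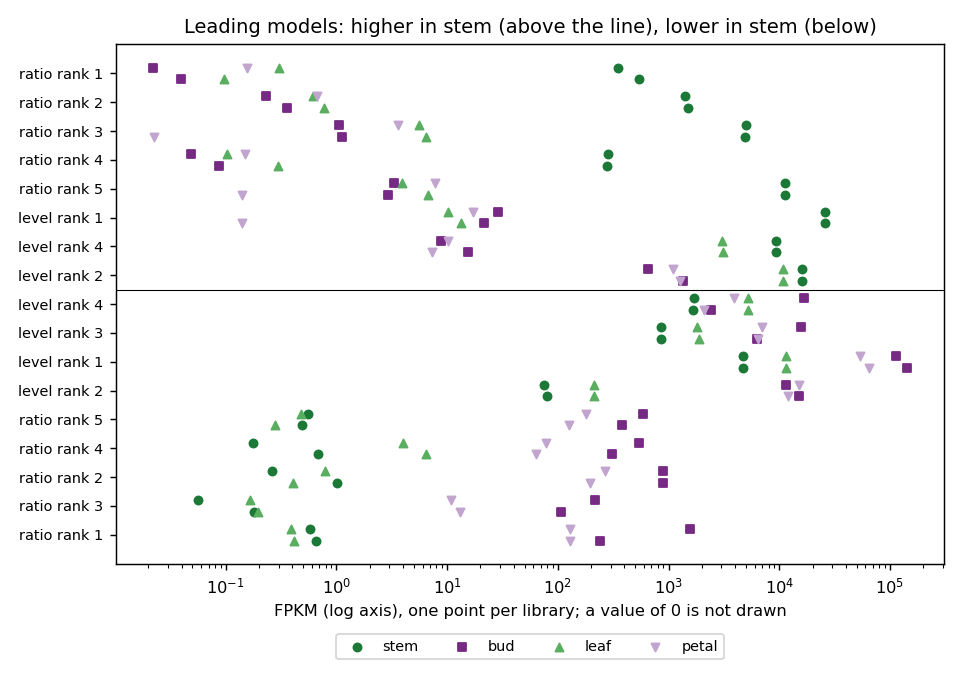
FPKM in each library on a log axis (x) for the models ranked first by ratio or by level in either direction (y), one symbol per library for stem, bud, leaf and petal. Ratio ranks run over 5 models and level ranks over 4 per direction, with the model in both ranks drawn once. Above the line stem lies far to the right of bud, and below it bud lies to the right of stem, with petal nearer to bud than to stem in most models.

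Under the same limits, the largest ratio among models lower in stem was that of evm.model.Chr10.477-gene, on chromosome 10, with a coding length of 1695 bp. Its FPKM was 0.576 and 0.651 in stem, against 1570 and 240 in bud. The groups did not overlap, although the bud libraries were far apart. Its log2 fold change was −10.84 ± 0.97 (SE; edgeR quasi-likelihood, adjusted p = 1.58e-05). It was −8.78 without bud replicate 1 and −11.65 without bud replicate 2. The model was also found in petal, at 128 and 128 FPKM, and in labellum, at 575 and 575 FPKM. It did not pass 0.414 FPKM in leaf and root.

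The most abundant model lower in stem was evm.model.Chr12.691-gene, on chromosome 12, a short model with a coding length of 363 bp. It had 4673 and 4733 FPKM in stem, against 112981 and 141856 FPKM in bud. Its log2 fold change was −5.01 ± 0.37 (SE; edgeR quasi-likelihood, adjusted p = 5.93e-06). Petal (53733 and 64900 FPKM) and labellum (67621 and 63977 FPKM) lay between stem and bud, as did leaf at 11394 and 11453 FPKM. Root was lowest, at 104 and 222 FPKM.

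The 5 models ranked first by ratio in this direction had 0.0565 to 1.02 FPKM in stem, against 107 to 1570 FPKM in bud. Their petal levels were at least 10.9 FPKM and their labellum levels at least 42.5 FPKM, while none passed 6.43 FPKM in leaf or root. The 4 most abundant had 75.3 to 4733 FPKM in stem, against 2410 to 141856 FPKM in bud. Their coding lengths were short, from 186 to 594 bp.

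Counted by presence, stem and bud each had models that were low in the other. A model was taken as present in a tissue at 1 FPKM or more in both libraries. By that measure 15566 models were present in stem, 14664 in bud and 13500 in both. Stem had 986 models that were under 1 FPKM in both bud libraries, and bud had 928 that were under 1 FPKM in both stem libraries. The stem count was 1638 without bud replicate 2, and it was 581 at a threshold of 0.1 FPKM and 1661 at 5 FPKM.

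The remaining tissues divided these models unevenly. Of the 986 present in stem and not in bud, 614 were present in leaf, 407 in root, 132 in labellum and 63 in petal, and 127 were present in none of those. Of the 928 present in bud and not in stem, 398 were also found in petal and 360 in labellum. Root had 202 of them and leaf 118, and 339 were present in none of those. No share of all models present in each of these tissues is given here, so the counts only describe the sets. The tissues also differed in how well their libraries agreed on presence: 674 models passed 1 FPKM in a single stem library, and 1810 in a single bud library.

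Models higher in stem were longer than models lower in stem. Their median coding length was 1596 bp among those higher and 771 bp among those lower, against 1134 bp over the tested models. Across the 19123 tested models Spearman's rho between coding length and the log2 fold change of stem over bud was 0.357, where models are not independent and share the same 4 libraries.

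The change with length was steady over 5 classes of near-equal size. In the shortest class (153 to 606 bp) 10.1% of the models were higher in stem and 43.6% lower, with a median log2 fold change of −1.15. In the middle class (957 to 1344 bp) the shares were 18.0% and 21.4%, with a median of −0.12. In the longest class (1896 to 16149 bp) 41.9% were higher in stem and 7.49% lower, with a median of 0.97. The shortest class took 15.6% of the counts in both stem libraries, against 33.1% and 31.4% in bud replicates 1 and 2. Both bud libraries thus lay on the same side. What lies behind this trend was not tested.

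With the trend on length removed from the fit, 3263 models were higher in stem, of which 2779 were among the 4045, and 3701 were lower, of which 3310 were among the 4592. The median coding lengths were then 1113 bp for models higher in stem and 1047 bp for models lower in stem.

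**Figure D3:**
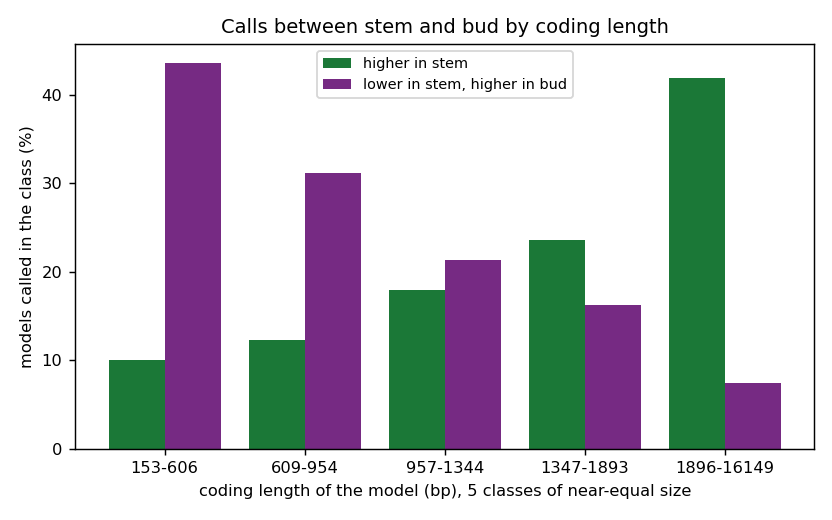
Share of models called higher in stem (green) and lower in stem (purple), in percent (y axis), in 5 classes of coding length in bp (x axis). The green bars climb from 10.1% in the shortest class to 41.9% in the longest, and the purple bars drop over the same classes to 7.49%.

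The called models were spread over the genome. On the 19 chromosomes the share of tested models higher in stem ran from 17.6% on chromosome 11 to 25.3% on chromosome 8. The share lower in stem ran from 21.6% on chromosome 10 to 27.5% on chromosome 13. Neighbouring models were called alike a little more often than the background. After a model higher in stem, the next tested model was also higher in 749 of 2903 cases (25.8%), against 21.2% of all tested models. After a model lower in stem, the next was also lower in 930 of 3177 cases (29.3%), against 24.0%.

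Runs of at least 3 neighbours called the same way numbered 149 higher in stem (488 models) and 167 lower in stem (564 models). Runs of 5 or more numbered 7 and 15. The longest were looked up after their values had been seen. A run of 6 on chromosome 15 held models of 1521 to 1542 bp, of which 4 had the same coding length of 1533 bp. The summed FPKM of that run was 1438 and 1413 in stem, against 6.81 and 15.0 in bud. In leaf the sum was 2.62 and 3.34, and it did not pass 15.0 in any library outside stem, so the run as a whole was high in stem alone among the 6 tissues.

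The other run of 6 higher in stem, on chromosome 12, was not limited to stem. Its summed FPKM was 143 and 125 in stem, against 4.45 and 5.72 in bud, and it was highest in root, at 723 and 305. Among the runs lower in stem the longest were of 7 models, on chromosomes 7 and 13. The run on chromosome 13 held short models of 378 to 522 bp, and 5 of its 7 had the same length of 378 bp. Equal lengths in neighbours may mark near-identical copies, and how the authors' counting divided reads between such copies is not given in the sources used here, so the single values within these runs are uncertain.

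The bud libraries were less alike than the stem libraries. The coefficient of variation between libraries beyond counting error, as edgeR estimated it, was 0.0757 in stem and 0.579 in bud, and bud had the largest value of the 6 tissues (leaf 0.0725, petal 0.194, labellum 0.295, root 0.357). The test used 1 spread per model over all 6 tissues, so its p-values do not reflect the larger spread of bud in full. Limma-voom with a weight per tissue gave bud the lowest weight, 0.173. It called 3003 models higher in stem, of which 2922 were among the 4045, and 4184 lower, of which 4157 were among the 4592. Spearman's rho across tested models was 0.995 between the stem libraries and 0.925 between the bud libraries. Among 13971 models with at least 100 counts in a stem library, 14 differed 4-fold or more between the stem libraries. Among 14392 models with at least 100 counts in a bud library, 530 were at least 4-fold higher in bud replicate 1 and 438 at least 4-fold higher in bud replicate 2, together 6.73%.

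Each bud library nevertheless lay in the same order of likeness to the other tissues. Bud replicate 1 had a mean rho of 0.710 with stem, 0.878 with petal, 0.877 with labellum, 0.701 with leaf and 0.653 with root. Bud replicate 2 had 0.758 with stem, 0.919 with petal, 0.902 with labellum, 0.744 with leaf and 0.694 with root. For every tissue the value of bud replicate 2 was the larger, so bud replicate 1 stood further from all the others. Its rho of 0.925 with the other bud library was above both of its floral values. For bud replicate 2 the margin was small, since its rho was 0.921 and 0.918 with the petal libraries.

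Each bud library was also set against stem without the other. With bud replicate 1 alone, 4667 models were higher in stem and 4799 lower, and these held 88.9% of the models called higher with both libraries and 90.9% of those called lower. With bud replicate 2 alone, 4066 were higher and 4381 lower, holding 82.4% and 84.6%. In such a fit the lone library is assumed to vary like the other groups. No model called with both libraries was called in the opposite direction with either alone. That outcome was nearly fixed beforehand, because stem and bud libraries did not overlap in 4045 models called higher and 4563 called lower. The fit with both libraries also contains each lone library, so the shares held are not independent support. Calls made with both libraries and with each alone numbered 3025 higher in stem and 3494 lower, which is 74.8% and 76.1% of the called sets.

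The models that separated the bud libraries were also set beside stem. The 530 models high in bud replicate 1 had median FPKM values of 4.53 and 4.37 in stem, against 17.0 and 1.93 in bud replicates 1 and 2. Of these, 190 were called lower in stem and 16 higher. The 438 models high in bud replicate 2 had medians of 6.35 and 6.36 in stem, against 1.00 and 10.6 in bud replicates 1 and 2. Of these, 72 were called lower in stem and 71 higher. Among all tested models 24.0% were called lower and 21.2% higher. Both groups were picked on a bud library that also enters the calls, so these counts do not show different kinds of models. For such models the direction between stem and bud could rest on a single bud library. In 185 models bud replicate 1 was at least 2-fold above and bud replicate 2 at least 2-fold below the mean of stem, and in 156 models the reverse held.

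Among models with at least 100 counts in a bud library, the largest gap in favour of bud replicate 1 was in evm.model.Chr13.1545-gene, on chromosome 13, with a coding length of 189 bp. It had 51.1 and 57.4 FPKM in stem, against 416 FPKM in bud replicate 1 and 0 in bud replicate 2. Stem thus lay between the bud libraries. The log2 fold change was −2.28 ± 1.88 (SE; edgeR quasi-likelihood, adjusted p = 0.327). It was −3.27 without bud replicate 2 (adjusted p = 0.0174) and had the opposite sign without bud replicate 1, at 10.85 (adjusted p = 0.0114). Among the other tissues leaf had 30.7 and 37.1 FPKM, and labellum had 0.183 and 17.4.

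Within the same limit, the largest gap in favour of bud replicate 2 was in evm.model.Chr17.1145-gene, on chromosome 17, with a coding length of 1107 bp. It had 0 and 0.0332 FPKM in stem, against 0.165 FPKM in bud replicate 1 and 194 in bud replicate 2. It was called lower in stem (edgeR quasi-likelihood, adjusted p = 0.00475). The stem libraries held 1 count of it, and the bud libraries held 5 and 6543. With stem floored at 3 counts, the pooled ratio of bud over stem was 2112. The counting interval of 1137 to 250204 was taken from the 1 count without that floor. It does not cover the difference between the bud libraries. That call was lost without bud replicate 2 (adjusted p = 0.0816) and with limma on log2(FPKM + 1) (adjusted p = 0.0841). Petal, at 18.0 and 47.0 FPKM, was the next highest tissue.

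**Figure D4:**
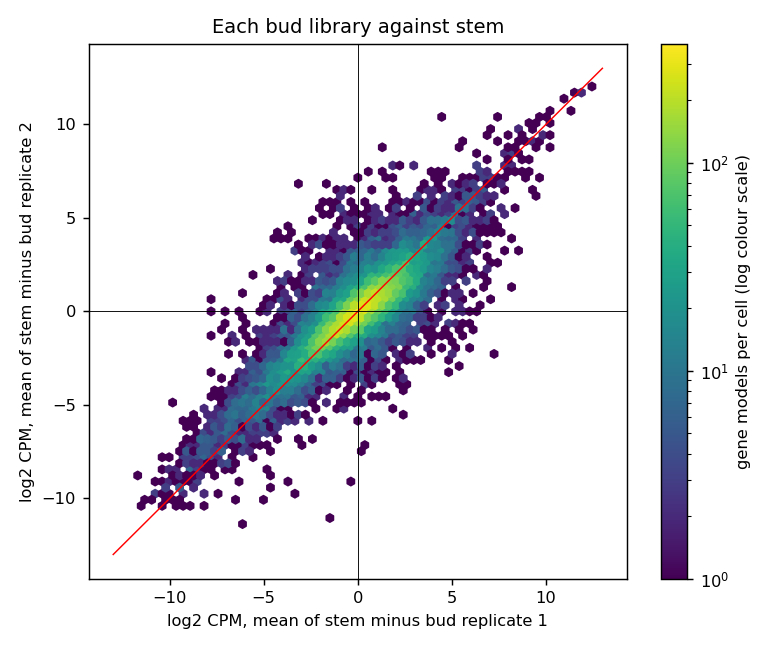
Mean log2 CPM of stem minus the log2 CPM of bud replicate 1 (x axis) and of bud replicate 2 (y axis) for the tested models, coloured by the number of models per cell on a log colour scale. The red line marks equal values. Most models lie along the line, and the upper left and lower right quadrants hold models that the bud libraries place on opposite sides of stem.

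A small set of models was high in stem and bud alike. A model entered it when stem and bud were each higher than root, leaf, petal and labellum, with an adjusted p under 0.05 and at least 2-fold in all 8 contrasts. These contrasts share the libraries of the other 4 tissues. The set held 49 models, 0.256% of those tested, while 392 models (2.05%) passed the 4 contrasts of stem and 722 (3.78%) the 4 contrasts of bud. By level alone, 157 models had both tissue means at least 2-fold above the other 4 and at 1 FPKM or more.

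The count of 49 moved with single libraries, since all 8 contrasts had to pass. It was 23 and 22 without stem replicate 1 or 2, 25 and 26 without leaf replicate 1 or 2, and 24 and 22 without petal replicate 1 or 2. It was 56 without bud replicate 1 and 75 without bud replicate 2, and 19 at a threshold of 4-fold.

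The 49 models were mostly of moderate level, and most were not called between stem and bud. Their median FPKM was 16.9 in stem and 14.2 in bud, beside 1.32 in leaf, 0.828 in root, 1.67 in petal and 1.36 in labellum. Together they took 0.274% of the counts in stem and 0.287% in bud (0.339% and 0.235% in bud replicates 1 and 2). Of the 49, 5 were called higher in stem than in bud, 6 were called lower and 38 were not called. Among all tested models 21.2% were called higher, 24.0% lower and 54.8% were not called. The selection itself asks for high levels in both tissues, so these counts are not a separate result. A missed threshold does not show equal levels. In 27 of them both tissue means were at least 10 FPKM, and in 10 of them all other 4 tissues were under 1 FPKM. Their median coding length was 1092 bp, against 1134 bp over the tested models.

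The 38 of them whose log2 CPM averaged at least 3 over the stem and bud libraries were ranked by the smallest of their 8 log2 fold changes. The first was evm.model.Chr09.1637-gene, on chromosome 9, with a coding length of 1044 bp. It had 11.01 and 10.4 FPKM in stem, against 98.7 and 49.9 FPKM in bud. No library of the other tissues passed 0.473 FPKM. The smallest of its 8 log2 fold changes was 4.80 and the largest adjusted p was 0.0025 (edgeR quasi-likelihood). Without petal replicate 1, whose value was 0, that smallest log2 fold change was 4.07. Between the tissues it was itself lower in stem, with a log2 fold change of −3.08 ± 0.67 (SE; adjusted p = 0.00331).

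The second was evm.model.Chr10.471-gene, on chromosome 10, with a coding length of 999 bp, and it was far more abundant. It had 1160 and 1157 FPKM in stem, against 1872 and 1189 FPKM in bud. It was far lower elsewhere, at 6.06 and 6.004 FPKM in leaf, 18.6 and 58.3 in root, 43.3 and 27.5 in petal, and 55.1 and 41.3 in labellum. The smallest of its 8 log2 fold changes was 4.25 and the largest adjusted p was 0.000316 (edgeR quasi-likelihood). Stem over bud was −0.68 ± 0.45 (SE; adjusted p = 0.226). It lay 6 places along chromosome 10 before the model ranked first by ratio among those lower in stem, which did not pass 0.651 FPKM in stem.

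Neighbours were rare in the set. It held 2 pairs with consecutive numbers, on chromosomes 6 and 17, which were picked out after their values had been seen. Both models of the pair on chromosome 17 were under the log2 CPM limit and so stood outside the ranking, although their fitted values were larger than those of the models above. The models of the pair on chromosome 17 had 507 and 684 bp. The shorter had 14.6 and 15.8 FPKM in stem, against 0.939 and 1.75 FPKM in bud, and was listed at 0 in the other 8 libraries. The longer had 16.8 and 18.7 FPKM in stem, against 4.77 and 6.19 FPKM in bud, and was listed at 0 in 7 of the other 8.

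**Figure D5:**
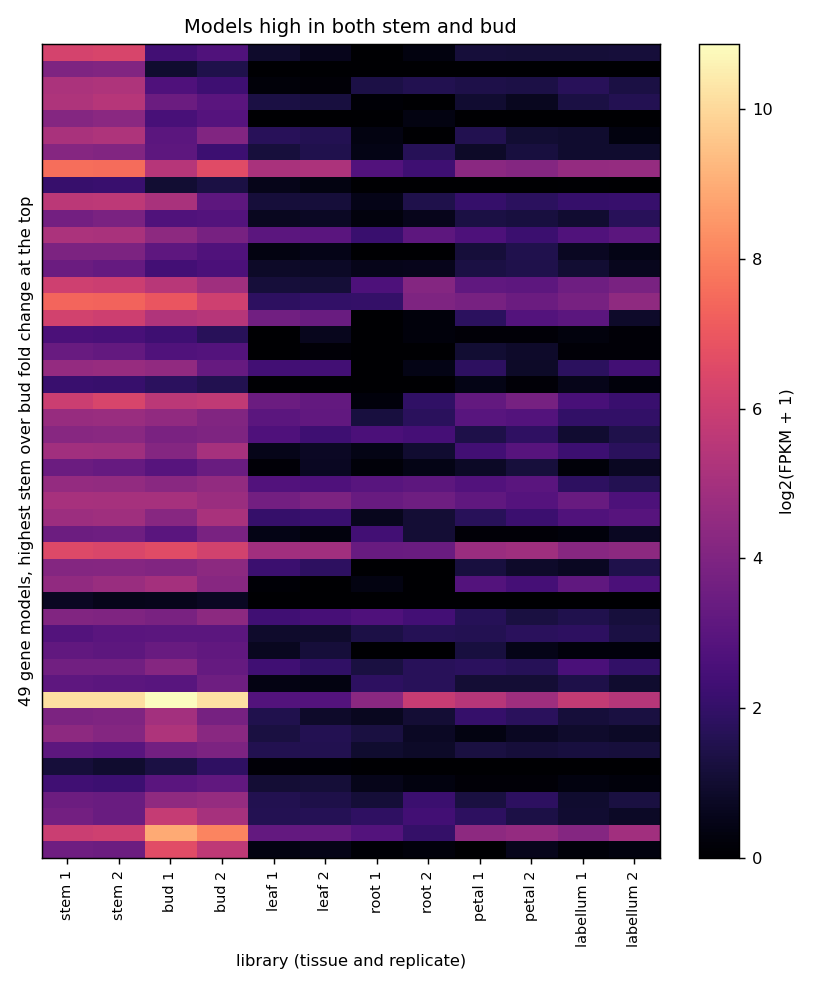
Heat map of log2(FPKM + 1) for the 49 models high in both stem and bud (rows, sorted by the fold change of stem over bud) in the 12 libraries (columns). The 4 stem and bud columns at the left are on average brighter than the 8 others in each row, as the selection requires, and rows near the top are brighter in stem and rows near the bottom in bud.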

How the data were processed

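RNA-seq was measured in 12 libraries of 6 tissues. Per the labels' protocols, a Qiagen kit was used for RNA extraction and a SMARTER mRNA-seq kit for the libraries. The authors deposited whole-number read counts per gene model, not normalised, and FPKM values for the same 31672 models. The aligner, counter, strand setting and genome build are each not given in the sources used here, although GRCm38 and mm10, which are mouse builds, stand in the submitters' processing notes. Each deposited FPKM above 0 equalled the count divided by the library total and 1 length per model (tolerance 0.01 bp). These lengths were multiples of 3 and are called coding lengths.

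The test was edgeR 4.0.16 (R 4.3.3; filterByExpr, TMM, quasi-likelihood) on counts in one fit of all 12 libraries with a mean per tissue and 6 residual degrees of freedom, with Benjamini-Hochberg adjustment over 19123 models. SE was taken as fold change over the root of F. Alternatives used DESeq2 1.42.0, limma 3.58.1, other scalings and filters, 4 libraries alone, a replicate block, a fit with the length trend removed, and left-out libraries. Floors were 3 counts over a group; 95% intervals reflect counting error alone, as reads copied by PCR do not each stand for a molecule.

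The rule for leading models took, per direction, the 5 called models with the largest pooled CPM ratio (average log2 CPM of at least 3, no overlap between libraries) and the 4 with the highest mean FPKM. For models high in both it took, at the same log2 CPM limit, the 5 with the largest smallest fold change, and for the bud libraries the 2 per direction with the largest difference among models with at least 100 counts. The first of each list is printed (for models high in both, the first 2), and the others are given as ranges. The members and lists were chosen with earlier results of these data known.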

Additional observations from a re-analysis of the deposited data

How the results depend on the processing

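The alternatives gave 3003 to 5123 models higher in stem and 3491 to 4753 lower at the same thresholds. Which direction held more calls changed: total counts gave 4866 higher and 3815 lower, and limma gave 4808 and 3491 on log2(FPKM + 1) and 5123 and 3580 on log2(FPKM + 0.1). DESeq2 gave 3934 and 4753, the 4 libraries alone 3318 and 3954. At 4-fold the counts were 2101 and 2664. Leaving out one library gave 3263 to 4667 higher and 3643 to 4799 lower. Stem and bud libraries of the same number did not deviate together (correlation 0.0067), so the numbers are not shown to pair them; with a replicate block the 12-library fit called 3924 and 4397 models, and 42 high in both.

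Models high in both numbered 19 at 4-fold and 22 to 75 with one library left out. The median log2 fold change over all models was −0.035, and it was −0.091 with RLE size factors, 0.19 with total counts, −0.026 with the length trend removed, and −0.061 to 0.035 with one library left out. Median coding lengths were 1113 and 1047 bp with the trend removed, 756 bp for models lower in stem with total counts, and 1536 to 1692 and 750 to 777 bp with one library left out. Models present in stem and not bud numbered 581 at 0.1 FPKM, 1661 at 5 FPKM, and 1414 to 1638 with one bud library left out. For evm.model.Chr13.1545-gene the log2 fold change reversed to 3.37 with limma-voom, 1.43 and 3.07 with limma on log2(FPKM + 1) and log2(FPKM + 0.1), 0.81 with a replicate block in 4 libraries, and 10.85 without bud replicate 1 (−3.27 without bud replicate 2). Of 185 values of the 8 printed models under alternatives, 176 kept direction and side of the thresholds. The causes were not tested. With 2 libraries a tissue and one bud library far from the other, differences within bud limit the precision.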
